A study of Solanum lycopersicum with 36 samples.

Results

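The 9 genes of jasmonate synthesis and signalling described here were followed through the day in leaves of tomato, in 2 kinds of RNA library. They were chosen by identifier and are 9 of the 34075 gene identifiers counted. For synthesis they are LOXD (Solyc03g122340, chromosome 3), AOS (Solyc04g079730, chromosome 4), AOC (Solyc02g085730, chromosome 2) and OPR3 (Solyc07g007870, chromosome 7). For signalling they are the receptor gene COI1 (Solyc05g052620, chromosome 5), the transcription factor gene MYC2 (Solyc08g076930, chromosome 8) and the repressor genes JAZ1 (Solyc07g042170, chromosome 7), JAZ2 (Solyc12g009220, chromosome 12) and JAZ3 (Solyc03g122190, chromosome 3). All 9 passed the filter on low counts in both kinds of library. The leaves came from plants of the genotype HeinZ 1706, aged 4 weeks and kept at 25 °C with 12 h of light and 12 h of dark. GMUCT, the mapping of uncapped and cleaved transcripts across the genome, was run on total RNA and counts the 5′ ends of RNA molecules that carry no cap. mRNA libraries, made from polyadenylated RNA, count reads from messages. Each kind had 3 replicates at Light 0h, Light 4h, Light 8h, Dark 0h, Dark 4h and Dark 8h, 18 libraries of each and 36 in all, with no other treatment or genotype named.

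Jasmonate is a hormone made from plastid fatty acids, best known in leaves for defence against wounding and insects. A 13-lipoxygenase (LOXD) oxygenates linolenic acid. Allene oxide synthase (AOS) and allene oxide cyclase (AOC) turn the product into OPDA, and the peroxisomal OPDA reductase OPR3 starts its conversion to jasmonic acid. The isoleucine conjugate is sensed by the F-box protein COI1, which marks JAZ repressors for destruction. JAZ proteins bind and hold back the basic helix-loop-helix factor MYC2, and MYC2 in turn activates many jasmonate response genes, JAZ genes among them.

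Between 15739253 and 20581411 reads were counted in genes in the GMUCT libraries (median 18765648), against 6632784 to 27126312 in the mRNA libraries (median 15587175). Replicate 1 of the Dark 4h mRNA group was the shallowest. Within groups, replicate 3 of GMUCT gave the highest of the 3 values for 7 of the 9 genes at Light 8h, Dark 0h and Dark 4h each, and replicate 2 of mRNA at Light 8h did for 9 of 9. Levels are given as CPM (counts scaled by library size, with TMM factors), and are not compared between genes because no gene lengths were at hand. Reads placed at several positions, which enter no gene, made up 8.6 to 40.2% of the GMUCT counts and 2.11 to 3.52% of the mRNA counts. In GMUCT that share was 8.6 to 10.1% at Light 8h, 11.9 to 26.6% at Dark 0h and 13 to 40.2% at Dark 4h, and its part in the results was not tested. Dark 0h stood apart. Over 9880 genes, the GMUCT and mRNA profiles of the same time (each centred on its own mean over times) correlated at 0.67 to 0.77 at the other 5 times and at -0.05 at Dark 0h, and the mRNA profile of Dark 0h was closest to the GMUCT profile of Dark 4h (0.29). Whether the libraries labelled Dark 0h were taken at the same moment in both kinds cannot be told from the files. Changes at Dark 4h against Light 8h, which step over Dark 0h, are given as well, though that comparison was not planned beforehand. Whether replicates are separate plants is not in the labels, and the p-values therefore reflect only how far these libraries spread, which may be technical.

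Levels of 8 of the 9 genes in GMUCT and 9 of 9 in mRNA differed among the 6 times. The test was edgeR's quasi-likelihood test with Benjamini-Hochberg adjustment over all genes tested, and a gene is said to have changed, risen or fallen where the adjusted p is under 0.05. By the same test 58.4% of 20696 genes changed in GMUCT and 70.9% of 19711 in mRNA, so these counts lie within what most leaf genes did. The gene missed in GMUCT was MYC2 (adjusted p = 0.0532), which passed by DESeq2 (adjusted p = 0.0156) and by edgeR with RLE scaling (adjusted p = 0.0478). Without Dark 0h, 9 of 9 passed in GMUCT and 8 of 9 in mRNA, where OPR3 no longer did (adjusted p = 0.117). The median range of the members was wider than that of all genes. The median log2 difference between a gene's highest and lowest time was 1.51 for the 9 members against 0.98 for all genes in GMUCT, and 1.56 against 1.27 in mRNA. OPR3 and MYC2 lay below the median of all genes in both (0.81 and 0.62 in GMUCT, 0.95 and 0.96 in mRNA). COI1 did so in mRNA (0.93). In bulk leaf, fewer cells of a type and less RNA per cell cannot be told apart.

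The time of the highest level differed between the 2 kinds of library for 6 of the 9 genes. How often it differed over all genes was not counted, so this number is a description only. In GMUCT, 6 of 9 (AOS, AOC, OPR3, JAZ1, JAZ2 and JAZ3) had their highest mean at Dark 0h, where 22.4% of all genes had theirs. The Dark 0h libraries overlapped with those of the next highest time for OPR3, JAZ1, JAZ2 and JAZ3. The GMUCT change at Dark 4h against Dark 0h did not pass by edgeR for OPR3 (-0.28, adjusted p = 0.136), JAZ2 (-0.87, adjusted p = 0.0637) or JAZ3 (-0.65, adjusted p = 0.0547). DESeq2 called those of JAZ2 and JAZ3. In mRNA, 4 of 9 (MYC2, JAZ1, JAZ2 and JAZ3) were highest at Dark 4h, where 11.9% of all genes were. For MYC2 that time was not separated from Light 8h (225 ± 31.3 and 224 ± 59.2 CPM, log2 change 0 ± 0.18, adjusted p = 0.992 by edgeR). For JAZ1 the log2 change against Dark 0h was 0.21 without replicate 2 of Dark 4h (adjusted p = 0.626). AOS and OPR3 were highest at Dark 0h in mRNA as well, and COI1 had its highest mean at Light 0h in both. LOXD and MYC2 were highest at Light 4h in GMUCT, but at Light 8h and Dark 4h in mRNA.

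LOXD, which opens the pathway, had the widest mRNA range of the 9 genes. In GMUCT it had 14.1, 9.94 and 28.5 CPM (Light 0h), 62.9, 55.6 and 73.1 (Light 4h), and 44.5, 46.3 and 57.6 (Light 8h). After the light phase its GMUCT level was 38.8, 50 and 88.6 CPM (Dark 0h), 25, 26.3 and 30.2 (Dark 4h), then 45.6, 26.5 and 23.6 (Dark 8h). The 3 libraries of Light 0h lay below all those of Light 4h, and replicate 3 of Dark 0h was the highest of the 18. LOXD mRNA stood at 6.64, 2.79 and 5.74 CPM (Light 0h), 20.3, 21.3 and 19.2 (Light 4h), and 91.2, 95.7 and 89 (Light 8h). In the dark the mRNA libraries gave 36.4, 35.8 and 17.1 CPM (Dark 0h), 77.9, 75.9 and 34 (Dark 4h), then 17.8, 8.87 and 10.3 (Dark 8h). The Light 8h mRNA libraries lay above all other mRNA libraries, and those of Light 0h below all others, a log2 range of 4.24 between group means, against 1.99 in GMUCT.

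LOXD rose at Light 4h against Light 0h in both, by a log2 change of 1.87 ± 0.36 (SE) in GMUCT (adjusted p = 0.00107) and 1.97 ± 0.36 in mRNA (adjusted p = 0.000174). After that the 2 measures parted. At Light 8h against Light 4h the log2 change was -0.37 ± 0.34 in GMUCT, which did not pass (adjusted p = 0.554), and mRNA rose by 2.18 ± 0.34 (adjusted p = 0.000135). At Dark 0h against Light 8h it was 0.26 ± 0.34 in GMUCT (adjusted p = 0.678) and -1.62 ± 0.33 in mRNA, a fall (adjusted p = 0.000643). At Dark 8h against Dark 4h it was 0.23 ± 0.35 in GMUCT (adjusted p = 0.768) and -2.33 ± 0.35 in mRNA, again a fall (adjusted p = 0.000175). These called changes passed with any single library left out. With Dark 0h stepped over, Dark 4h against Light 8h, LOXD changed by -0.87 ± 0.35 in GMUCT (adjusted p = 0.0763) and -0.56 ± 0.33 in mRNA (adjusted p = 0.184), and neither passed.

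At Dark 4h against Dark 0h LOXD fell by 1.12 on the log2 scale in GMUCT (adjusted p = 0.0268) and rose by 1.06 in mRNA (adjusted p = 0.0262), and both calls hung on single libraries. The GMUCT fall did not pass without replicate 3 of Dark 0h (-0.71, adjusted p = 0.16), or replicate 1 or 2 of Dark 4h (adjusted p = 0.0824 and 0.0805). The mRNA rise did not pass without replicate 3 of Dark 0h (0.79, adjusted p = 0.109), or replicate 1 or 2 of Dark 4h (adjusted p = 0.108 and 0.109). Across the end of the night, Light 0h against Dark 8h, LOXD mRNA fell by 1.27 (adjusted p = 0.04). That call was lost in 6 of 18 fits with a library left out, among them without replicate 1 of Dark 8h (-0.89, adjusted p = 0.261), replicate 2 of Light 0h (-1, adjusted p = 0.166) or replicate 3 of Light 0h (adjusted p = 0.089). The other 3 left out the replicates of Light 4h in turn, with adjusted p between 0.0519 and 0.0534. Setting Dark 4h against Light 4h, a comparison chosen after the values were seen and free of Dark 0h, LOXD fell by 1.23 ± 0.35 in GMUCT (adjusted p = 0.0126) and rose by 1.62 ± 0.34 in mRNA (adjusted p = 0.000681), both whichever library was left out.

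AOC, the cyclase that fixes the stereochemistry of the hormone, had its maximum at different times in the 2 measures. In GMUCT it had 35.8, 30.3 and 39.1 CPM (Light 0h), 118, 103 and 115 (Light 4h), and 58.5, 61.8 and 60.3 (Light 8h). Dark 0h gave 189, 299 and 298 CPM, Dark 4h gave 48.5, 41.9 and 87.2, and Dark 8h gave 66.5, 34.9 and 71.5. Every GMUCT library of Dark 0h was above every other, with Light 4h next and also clear of the rest. AOC mRNA was 51.4, 37.6 and 42.1 CPM (Light 0h), 284, 279 and 278 (Light 4h), and 181, 268 and 174 (Light 8h). In the dark it was 57.7, 56.7 and 53.4 CPM (Dark 0h), 45.4, 110.4 and 72.8 (Dark 4h), then 34.6, 48.5 and 36.3 (Dark 8h). The mRNA libraries of Light 4h and Light 8h lay above all those of the other 4 times, and those of Dark 0h were among the low ones.

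AOC rose at Light 4h against Light 0h by a log2 change of 1.67 ± 0.28 in GMUCT (adjusted p = 0.000359) and 2.68 ± 0.25 in mRNA (adjusted p = 1.49e-07). At Dark 0h against Light 8h the directions were opposite. GMUCT rose by 2.12 ± 0.28 (adjusted p = 0.000177) and mRNA fell by 1.89 on the log2 scale (SE 0.25, adjusted p = 5.85e-06). GMUCT fell at Dark 4h against Dark 0h, by 2.15 (SE 0.28, adjusted p = 7.54e-05), and the mRNA change of 0.45 ± 0.24 did not pass (adjusted p = 0.189), though it did without replicate 1 of Dark 4h (0.7, adjusted p = 0.0297). With Dark 0h stepped over, at Dark 4h against Light 8h, AOC changed by -0.02 ± 0.27 in GMUCT (adjusted p = 0.961) and fell by 1.44 in mRNA (SE 0.24, adjusted p = 0.000128). The GMUCT maximum of AOC thus rests on the time whose profile stood apart.

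Smaller AOC changes depended on single libraries. The GMUCT fall of 0.89 at Light 8h against Light 4h (adjusted p = 0.0396) was lost in 7 of 18 fits with a library left out, with adjusted p between 0.05 and 0.117. Those 7 left out each replicate of Light 4h and of Light 8h, or replicate 1 of Light 0h, and the log2 change stayed between -0.95 and -0.85. In mRNA, the fall of 0.94 at Dark 8h against Dark 4h (adjusted p = 0.0131) was lost without replicate 2 of Dark 4h (-0.57, adjusted p = 0.106) or replicate 1 of Dark 8h (-0.85, adjusted p = 0.0552).

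AOS and OPR3, the steps on either side of the cyclase, had their highest mean at Dark 0h in both measures. AOS had few reads in GMUCT, at 1.65 ± 0.157 CPM (Light 0h), 1.97 ± 0.4 (Light 4h) and 2.03 ± 0.327 (Light 8h) (mean ± SD, n = 3 throughout). It then stood at 8.59 ± 2.87 CPM (Dark 0h), 4.51 ± 0.803 (Dark 4h), then 3.89 ± 1.05 (Dark 8h), and all 9 dark libraries lay above all 9 light ones. AOS mRNA was 12.3 ± 3.4 CPM (Light 0h), 6.59 ± 0.208 (Light 4h), 8.25 ± 1.22 (Light 8h), 19.9 ± 4.28 (Dark 0h), 13.7 ± 0.653 (Dark 4h), then 14.9 ± 3.36 (Dark 8h). The mRNA libraries of Dark 0h lay above those of Light 4h and Light 8h, and overlapped with those of Dark 8h. AOS rose at Dark 0h against Light 8h, by a log2 change of 2.08 ± 0.28 in GMUCT (adjusted p = 0.00021) and 1.27 ± 0.22 in mRNA (adjusted p = 0.000104). With Dark 0h stepped over, Dark 4h against Light 8h, AOS was still higher, by 1.15 ± 0.28 in GMUCT (adjusted p = 0.00617) and 0.74 ± 0.22 in mRNA (adjusted p = 0.0113).

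Within the light phase AOS mRNA fell by 0.9 at Light 4h against Light 0h (SE 0.22, adjusted p = 0.00235), and its GMUCT change of 0.26 ± 0.29 did not pass (adjusted p = 0.537). In GMUCT, AOS fell by 0.93 at Dark 4h against Dark 0h (adjusted p = 0.0186) and by 1.24 at Light 0h against Dark 8h (adjusted p = 0.0132). The first fall was lost without replicate 3 of Dark 0h (-0.62, adjusted p = 0.118), or replicate 1 or 2 of Dark 4h (adjusted p = 0.0686 and 0.0732). The second was lost without replicate 3 of Dark 8h (-1.03, adjusted p = 0.0589) or replicate 3 of Light 0h (-1.17, adjusted p = 0.0556).

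OPR3 had a log2 range over the day of 0.81 in GMUCT and 0.95 in mRNA, below the median of the 9 genes in both. In GMUCT it had 47.8 ± 4.89 CPM (Light 0h), 52.3 ± 1.83 (Light 4h), 45.2 ± 4.51 (Light 8h), 80.2 ± 15.8 (Dark 0h), 66.2 ± 3.63 (Dark 4h), then 65.3 ± 3.09 (Dark 8h). Its mRNA was 36.2 ± 3.79 CPM (Light 0h), 38.6 ± 6.09 (Light 4h), 43.9 ± 7.03 (Light 8h), 69.8 ± 4.47 (Dark 0h), 49.7 ± 2.49 (Dark 4h), then 42.8 ± 6.01 (Dark 8h). All GMUCT libraries of the dark lay above all those of the light, and the mRNA libraries of Dark 0h lay above every other. OPR3 rose at Dark 0h against Light 8h by a log2 change of 0.83 ± 0.13 in GMUCT (adjusted p = 0.001) and 0.67 ± 0.16 in mRNA (adjusted p = 0.00194). At Dark 4h against Light 8h, without the doubtful time, the GMUCT rise was 0.55 ± 0.13 (adjusted p = 0.00592), and the mRNA change of 0.18 ± 0.16 did not pass (adjusted p = 0.388). The mRNA fall of 0.49 at Dark 4h against Dark 0h (adjusted p = 0.0298) did not pass without replicate 1 or 2 of Dark 0h (adjusted p = 0.0668 and 0.0573), or replicate 1 or 2 of Dark 4h (adjusted p = 0.0547 and 0.0596).

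**Figure D1:**
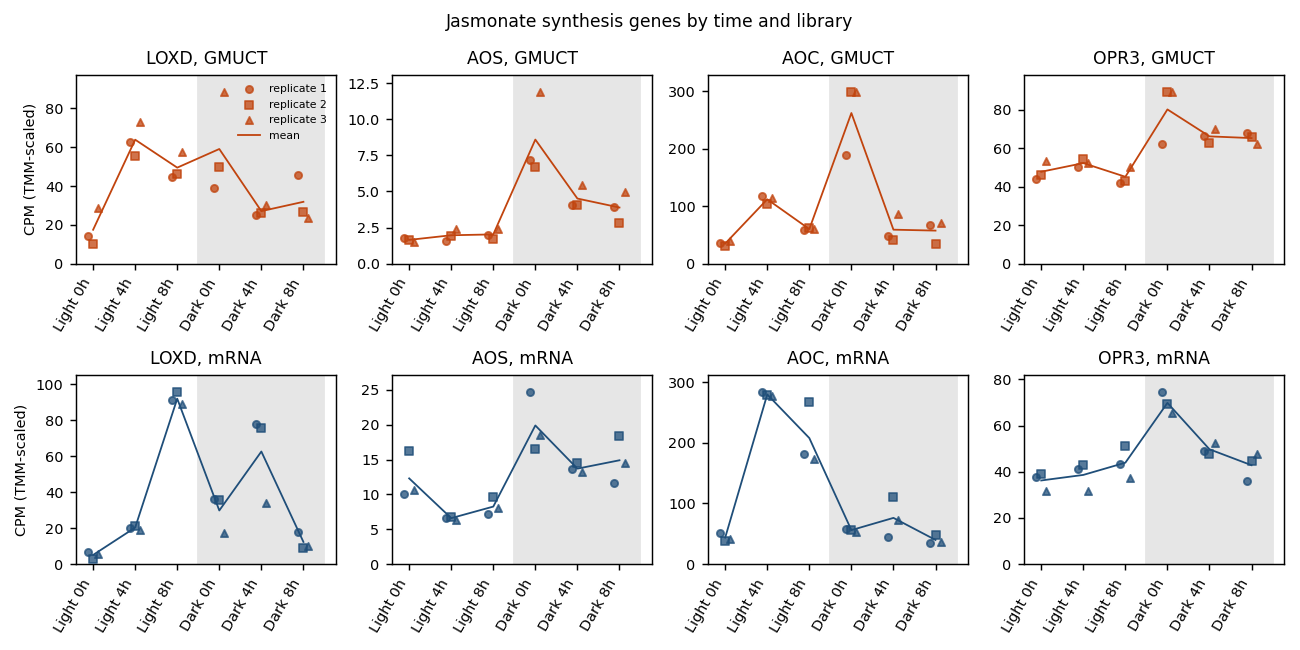
Levels of the 4 synthesis genes in TMM-scaled CPM (vertical axis) at the 6 times (horizontal axis), GMUCT in the upper row and mRNA in the lower, with a marker for each of 3 replicates, a line through the means and grey for the dark phase. LOXD mRNA was highest at Light 8h (92 ± 3.39 CPM), and AOC was highest at Dark 0h in GMUCT (262 ± 63.3 CPM) and at Light 4h in mRNA (280 ± 3.09 CPM).

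COI1, the hormone's receptor, followed a course of its own, with its highest mean at Light 0h in both measures. The mRNA libraries of Light 0h overlapped with those of Dark 8h (log2 change 0.08 ± 0.13, adjusted p = 0.869). In GMUCT it had 101 ± 1.8 CPM (Light 0h), 63.3 ± 4.85 (Light 4h), 46.9 ± 2.24 (Light 8h), 38.3 ± 5.29 (Dark 0h), 58.9 ± 5.79 (Dark 4h), then 72.9 ± 6.31 (Dark 8h). In mRNA it had 74.1 ± 5.29 CPM (Light 0h), 39.9 ± 1.14 (Light 4h), 38.8 ± 2.66 (Light 8h), 48.4 ± 2.65 (Dark 0h), 58.5 ± 10.3 (Dark 4h), then 70.2 ± 4.43 (Dark 8h). The lowest time was Dark 0h in GMUCT and Light 8h in mRNA, where Light 8h overlapped with Light 4h. COI1 fell at Light 4h against Light 0h by 0.67 on the log2 scale in GMUCT (SE 0.11, adjusted p = 0.000465) and by 0.89 in mRNA (SE 0.13, adjusted p = 2.67e-05). It rose at Dark 4h against Dark 0h by 0.62 ± 0.12 in GMUCT (adjusted p = 0.00124), where the mRNA change was 0.27 ± 0.13 (adjusted p = 0.156).

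Other COI1 steps were small. In GMUCT it fell by 0.43 at Light 8h against Light 4h (adjusted p = 0.0194), which did not pass without replicate 1 or 2 of Light 4h (adjusted p = 0.0776 and 0.0684), or replicate 1 or 3 of Light 8h (adjusted p = 0.0788 and 0.0741). It rose by 0.46 at Light 0h against Dark 8h in GMUCT (adjusted p = 0.021), which did not pass without replicate 1 of Dark 8h (0.4, adjusted p = 0.0966), or replicate 1, 2 or 3 of Light 0h (adjusted p = 0.0564, 0.0617 and 0.0609). Over the longer interval, Dark 4h against Light 8h, COI1 rose by a log2 change of 0.33 ± 0.11 in GMUCT (adjusted p = 0.0441) and 0.59 ± 0.14 in mRNA (adjusted p = 0.00194). The GMUCT call was lost in 12 of 18 fits with a library left out (adjusted p between 0.0507 and 0.158, the highest without replicate 2 of Dark 4h) and with another scaling (adjusted p = 0.0664), and the mRNA one in none.

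MYC2, the factor that JAZ proteins hold back, was nearly level in GMUCT. There it had 123, 127 and 136 CPM (Light 0h), 161, 148 and 137 (Light 4h), 91.3, 97.6 and 101 (Light 8h), 88.4, 119 and 157 (Dark 0h), 119.9, 125 and 113 (Dark 4h), then 131, 111 and 131 (Dark 8h). The Dark 0h libraries alone spanned nearly the whole range of the day. In mRNA, MYC2 had 119.8, 143 and 121 CPM (Light 0h), 116, 115 and 113 (Light 4h), 211, 289 and 173 (Light 8h), 229, 189.8 and 181 (Dark 0h), 239.5, 246 and 189 (Dark 4h), then 213, 189 and 167 (Dark 8h). Its mRNA libraries thus fell into a low level at Light 0h and Light 4h and a higher one at the other 4 times, with no overlap between them.

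At Light 8h against Light 4h, MYC2 changed in opposite directions. It fell by 0.62 on the log2 scale in GMUCT (SE 0.16, adjusted p = 0.0136) and rose by 0.97 ± 0.18 in mRNA (adjusted p = 0.000726). The mRNA rise passed whichever library was left out. The GMUCT fall did not pass without replicate 1 of Light 4h (-0.56, adjusted p = 0.0571) or replicate 1 of Light 8h (-0.58, adjusted p = 0.0634). The test over the 6 times in GMUCT, which MYC2 missed (adjusted p = 0.0532), did pass without replicate 1 or replicate 3 of Dark 0h (adjusted p = 0.00685 and 0.00659) and without Dark 0h altogether (adjusted p = 0.0025). With all libraries it passed by DESeq2 (adjusted p = 0.0156) and with RLE scaling (adjusted p = 0.0478). No other step between neighbouring times passed for MYC2 by edgeR in either measure. The nearest, -0.57 ± 0.18 in mRNA at Light 0h against Dark 8h (adjusted p = 0.0713), was called by DESeq2 (adjusted p = 0.0298) and by edgeR in 4 of 18 fits with a library left out (adjusted p between 0.0377 and 0.0443).

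The JAZ repressor genes had their highest mRNA mean together at Dark 4h and their highest GMUCT mean together at Dark 0h. In GMUCT the Dark 0h libraries of each overlapped with those of its next highest time. JAZ2 moved most. In GMUCT, JAZ2 had 7.12, 9.14 and 14.2 CPM (Light 0h), 14.1, 9.77 and 21.3 (Light 4h), and 6.6, 6.33 and 9.78 (Light 8h). Its dark GMUCT libraries had 25.3, 31.1 and 53.2 CPM (Dark 0h), 19.8, 16.5 and 23.8 (Dark 4h), then 32.5, 19.4 and 26.5 (Dark 8h). Every JAZ2 GMUCT library of Dark 0h was above every light-phase library. JAZ2 mRNA was 13.6, 12.1 and 17.6 CPM (Light 0h), 6.43, 7.27 and 4.96 (Light 4h), and 15, 22.9 and 15.3 (Light 8h). In the dark its mRNA was 47.5, 39.5 and 44.9 CPM (Dark 0h), 84.2, 164 and 56.6 (Dark 4h), then 34.1, 27.1 and 11 (Dark 8h). Each Dark 4h mRNA library lay above all the others and each Light 4h one below, with replicate 2 of Dark 4h far above its companions.

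JAZ2 mRNA rose by a log2 change of 4.03 ± 0.4 at Dark 4h against Light 4h (adjusted p = 1.79e-07), the pair of its highest and lowest times, where its GMUCT change was 0.41 ± 0.33 (adjusted p = 0.369). Without replicate 2 of Dark 4h the mRNA rise was 3.43 and still passed. JAZ2 rose at Dark 0h against Light 8h in both, by 2.27 ± 0.35 in GMUCT (adjusted p = 0.000662) and 1.31 ± 0.36 in mRNA (adjusted p = 0.00613). With Dark 0h stepped over, Dark 4h against Light 8h, the rise was 1.4 ± 0.34 in GMUCT (adjusted p = 0.00628) and 2.52 ± 0.37 in mRNA (adjusted p = 2.99e-05). At Dark 8h against Dark 4h the GMUCT change was 0.38 ± 0.33 (adjusted p = 0.565), and mRNA fell by 2.07 (SE 0.36, adjusted p = 0.000746).

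Further calls for JAZ2 depended on single libraries. Its mRNA fell by 1.21 at Light 4h against Light 0h (adjusted p = 0.0125), which did not pass without replicate 3 of Light 0h (-0.98, adjusted p = 0.0676) or of Light 4h (-1.02, adjusted p = 0.0693). It rose by 1.51 at Light 8h against Light 4h in mRNA (adjusted p = 0.00856), which did not pass without replicate 3 of Light 4h (1.32, adjusted p = 0.0592). The mRNA rise of 1.21 at Dark 4h against Dark 0h (adjusted p = 0.0179) did not pass without replicate 2 of Dark 4h (0.64, adjusted p = 0.185) or replicate 2 of Dark 0h (1.14, adjusted p = 0.058). In GMUCT it fell by 1.36 at Light 0h against Dark 8h (adjusted p = 0.0217), which did not pass without replicate 1 of Dark 8h (-1.17, adjusted p = 0.0877), or replicate 1 or 2 of Light 0h (adjusted p = 0.114 and 0.0904).

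JAZ1 had the same times of maximum with a smaller range. In GMUCT it had 13.7 ± 2.72 CPM (Light 0h), 25 ± 2.87 (Light 4h), 11.9 ± 2.92 (Light 8h), 34.6 ± 10.6 (Dark 0h), 17.3 ± 3.7 (Dark 4h), then 22.5 ± 7.81 (Dark 8h). In mRNA it had 13.9 ± 1.94 CPM (Light 0h), 12.9 ± 2.41 (Light 4h), 17.2 ± 1.77 (Light 8h), 23.9 ± 7.64 (Dark 0h), 47 ± 31.9 (Dark 4h), then 21.3 ± 5.66 (Dark 8h). The wide spread at Dark 4h came from replicate 2, at 83.8 CPM, against 30.5 and 26.7 in the other replicates. JAZ1 rose at Dark 0h against Light 8h by a log2 change of 1.54 ± 0.27 in GMUCT (adjusted p = 0.0021), and its mRNA change was 0.48 ± 0.34 (adjusted p = 0.28). With Dark 0h stepped over, Dark 4h against Light 8h, the GMUCT change of 0.54 ± 0.27 did not pass (adjusted p = 0.151), and mRNA rose by 1.46 ± 0.35 (adjusted p = 0.00255), or by 0.7 without replicate 2 of Dark 4h (adjusted p = 0.0491). It changed at Dark 4h against Light 4h by -0.53 ± 0.27 in GMUCT (adjusted p = 0.137) and rose by 1.87 ± 0.35 in mRNA (adjusted p = 0.000266). That mRNA rise was 1.07 without replicate 2 of Dark 4h and still passed.

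The remaining JAZ1 calls were less firm. The mRNA rise of 0.98 at Dark 4h against Dark 0h (adjusted p = 0.0442) was lost in 12 of 18 fits with a library left out, among them without replicate 2 of Dark 4h (0.21, adjusted p = 0.626), replicate 1 of Dark 0h (0.72, adjusted p = 0.189) or replicate 3 of Dark 0h (1.09, adjusted p = 0.06). The other 9 left out a library of another time, with adjusted p between 0.05 and 0.0594. The mRNA fall of 1.15 at Dark 8h against Dark 4h (adjusted p = 0.0298) was lost without replicate 2 of Dark 4h (-0.41, adjusted p = 0.365), or replicate 2 or 3 of Dark 8h (adjusted p = 0.0545 and 0.122). In GMUCT, JAZ1 rose by 0.87 (Light 4h) against Light 0h (adjusted p = 0.0218), fell by 1.07 (Light 8h) against Light 4h (adjusted p = 0.0137) and fell by 1 (Dark 4h) against Dark 0h (adjusted p = 0.0122). The GMUCT rise was lost without replicate 2 or 3 of Light 0h (adjusted p = 0.0974 and 0.0504) or replicate 3 of Light 4h (adjusted p = 0.0807). The light-phase fall was lost without replicate 3 of Light 4h (adjusted p = 0.0512), or replicate 1 or 2 of Light 8h (adjusted p = 0.0706 and 0.0636). The night fall was lost without replicate 3 of Dark 0h (-0.72, adjusted p = 0.0729) or replicate 2 of Dark 4h (-0.83, adjusted p = 0.0641).

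JAZ3 had 38.2 ± 2.71 CPM (Light 0h), 45.2 ± 14.7 (Light 4h), 27.1 ± 5.22 (Light 8h), 77.1 ± 17.3 (Dark 0h), 49.2 ± 6.98 (Dark 4h), then 52.7 ± 14.4 (Dark 8h) in GMUCT. Its mRNA was 97.1 ± 13.9 CPM (Light 0h), 85.5 ± 9.49 (Light 4h), 74.6 ± 11.2 (Light 8h), 124 ± 18.7 (Dark 0h), 197 ± 32.8 (Dark 4h), then 93.3 ± 16.8 (Dark 8h). In both measures the highest time lay above every light-phase library, and Dark 4h mRNA also lay above Dark 0h and Dark 8h. JAZ3 rose at Dark 0h against Light 8h by a log2 change of 1.51 ± 0.24 in GMUCT (adjusted p = 0.000992) and 0.73 ± 0.18 in mRNA (adjusted p = 0.00296). It rose at Dark 4h against Light 8h by 0.86 ± 0.24 in GMUCT (adjusted p = 0.0143) and 1.4 ± 0.18 in mRNA (adjusted p = 8.84e-06). That GMUCT rise did not pass without replicate 3 of Dark 4h (0.74, adjusted p = 0.0549), or replicate 1 or 2 of Light 8h (adjusted p = 0.0627 and 0.0579). At Dark 8h against Dark 4h JAZ3 changed by 0.1 ± 0.24 in GMUCT (adjusted p = 0.866), and its mRNA fell by 1.08 (SE 0.18, adjusted p = 0.00055). The mRNA rise of 0.67 at Dark 4h against Dark 0h (adjusted p = 0.012) did not pass without replicate 2 of Dark 4h (0.55, adjusted p = 0.0629) or replicate 1 of Dark 0h (0.53, adjusted p = 0.0648). JAZ genes belong to a family of related sequences, and reads that fit several of them equally well would be among those placed at several positions, which enter no count.

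**Figure D2:**
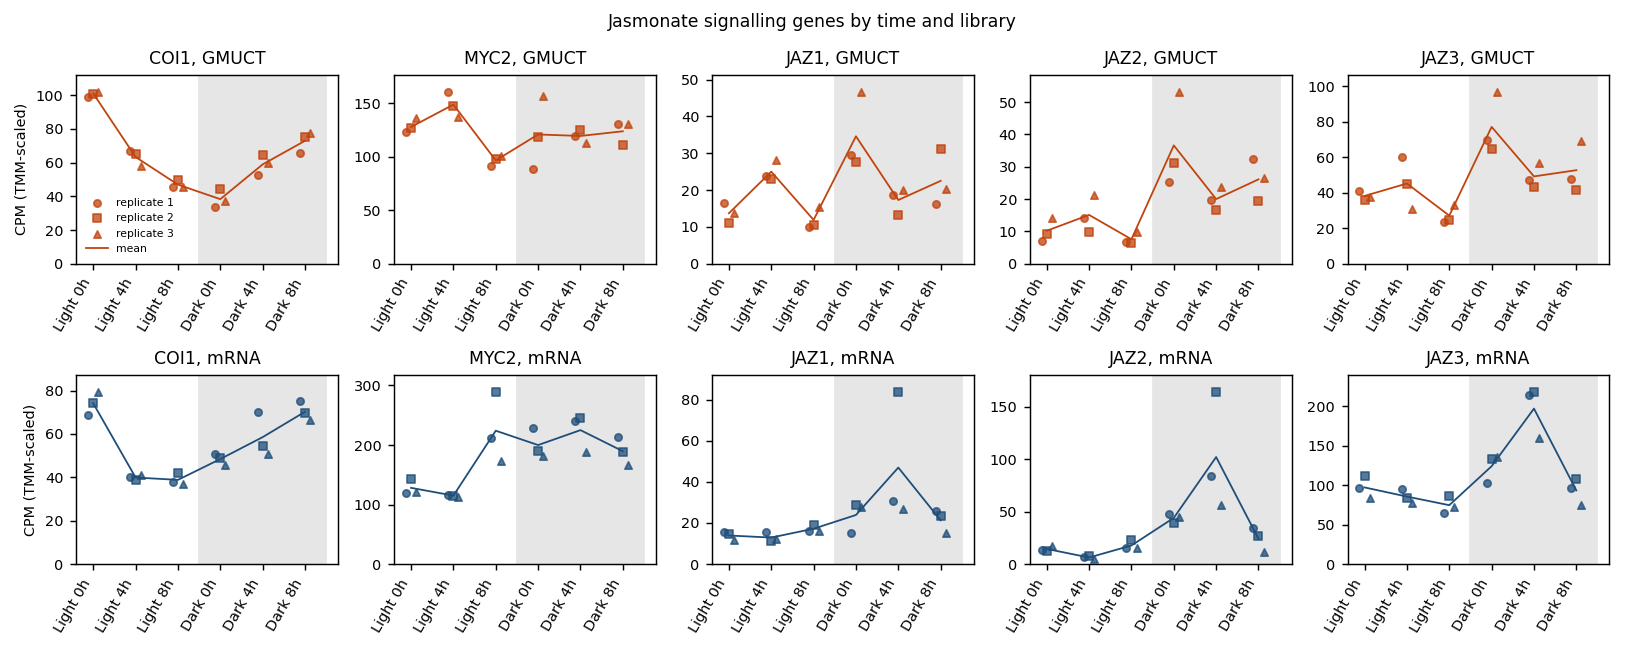
Levels of the receptor, factor and repressor genes in TMM-scaled CPM (vertical axis) at the 6 times (horizontal axis), GMUCT in the upper row and mRNA in the lower, with a marker for each of 3 replicates, a line through the means and grey for the dark phase. The 3 JAZ genes had their highest mean at Dark 0h in GMUCT, with overlap with the next highest time, and at Dark 4h in mRNA, where JAZ1 and JAZ2 had a high replicate 2 (83.8 and 164 CPM).

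Counted step by step, the members moved most nearly together at the change from light to dark in GMUCT and late in the night in mRNA. The GMUCT step ends at Dark 0h, where the profiles of the 2 kinds did not match. At Dark 4h against Light 8h, the GMUCT changes of AOC (-0.02, adjusted p = 0.961) and JAZ1 (0.54, adjusted p = 0.151) did not pass. At Dark 0h against Light 8h in GMUCT, 6 of 9 rose (AOS, AOC, OPR3, JAZ1, JAZ2 and JAZ3), where 4.67% of all genes did, and 0 of 9 fell, where 4.01% did. The median log2 change was 1.51 for the 9 members and 0 for all genes. In mRNA at the same step, 4 of 9 rose (AOS, OPR3, JAZ2 and JAZ3), where 21% of all genes did, and 2 fell (LOXD and AOC), where 22.7% did, with medians of 0.48 and -0.02. At Dark 8h against Dark 4h in GMUCT, 0 of 9 changed, where 1.81% of all genes rose and 2.38% fell. At that GMUCT step 1 of 9, COI1, had an unadjusted p under 0.05 by edgeR, and DESeq2 called 0 of 9 as well. In mRNA, 5 of 9 fell (LOXD, AOC, JAZ1, JAZ2 and JAZ3), where 8.11% of all genes did, and 0 of 9 rose, where 7.28% did, with medians of -0.94 for the members and 0.01 for all genes. Without replicate 2 of Dark 4h, the mRNA falls of AOC and JAZ1 did not pass (adjusted p = 0.106 and 0.365).

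The other steps split the members. At Light 4h against Light 0h, 3 rose (LOXD, AOC and JAZ1, with 14.8% of all genes) and COI1 alone fell (15.8%) in GMUCT, and 2 rose (LOXD and AOC, 22.4%) and 3 fell (AOS, COI1 and JAZ2, 24.8%) in mRNA. At Light 8h against Light 4h, 0 rose (6.76%) and 4 fell (6.59%) in GMUCT, and 3 rose (9.53%) and 0 fell (7.16%) in mRNA. AOC, COI1, MYC2 and JAZ1 were the ones that fell in GMUCT, to which DESeq2 added JAZ2 and JAZ3 (adjusted p = 0.0244 and 0.0215), and LOXD, MYC2 and JAZ2 those that rose in mRNA. Between Dark 4h and Dark 0h, 1 rose (COI1, 12.8%) and 4 fell (LOXD, AOS, AOC and JAZ1, 13%) in GMUCT, and 4 rose (LOXD and the JAZ genes, 12.6%) and 1 fell (OPR3, 11.1%) in mRNA. DESeq2 also called the GMUCT falls of JAZ2 and JAZ3 at that step (adjusted p = 0.0286 and 0.0255). At Light 0h against Dark 8h, 1 rose (COI1, 3.91%) and 2 fell (AOS and JAZ2, 2.34%) in GMUCT, and 0 rose (3.63%) and 1 fell (LOXD, 2.29%) in mRNA. Dark 4h against Light 4h was chosen after the values were seen. In that comparison 1 rose (AOS, 17.8%) and 2 fell (LOXD and AOC, 15.5%) in GMUCT, and 7 rose (24.1%) and 1 fell (21.6%) in mRNA. The AOC fall in GMUCT, of 0.92, did not pass without replicate 1 or 2 of Dark 4h (adjusted p = 0.0713 and 0.077). OPR3 was the mRNA that did not pass there (adjusted p = 0.0652), and AOC the one that fell, by 1.87 on the log2 scale (SE 0.25, adjusted p = 5.77e-06). Dark 4h against Light 8h gave 5 rises (AOS, OPR3, COI1, JAZ2 and JAZ3, 13.8%) and 0 falls (13.2%) in GMUCT. The COI1 and JAZ3 rises were lost in 12 and 3 of 18 fits with a library left out. In mRNA it gave 5 rises (AOS, COI1, JAZ1, JAZ2 and JAZ3, 20%) and 1 fall (AOC, 20.7%). Where a count of 0 is given in this paragraph, edgeR gave an unadjusted p under 0.05 for 1 gene (LOXD, lower in GMUCT at Dark 4h against Light 8h), which DESeq2 also called, and for no other. Neighbouring steps share libraries and so are not independent of each other.

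**Figure D3:**
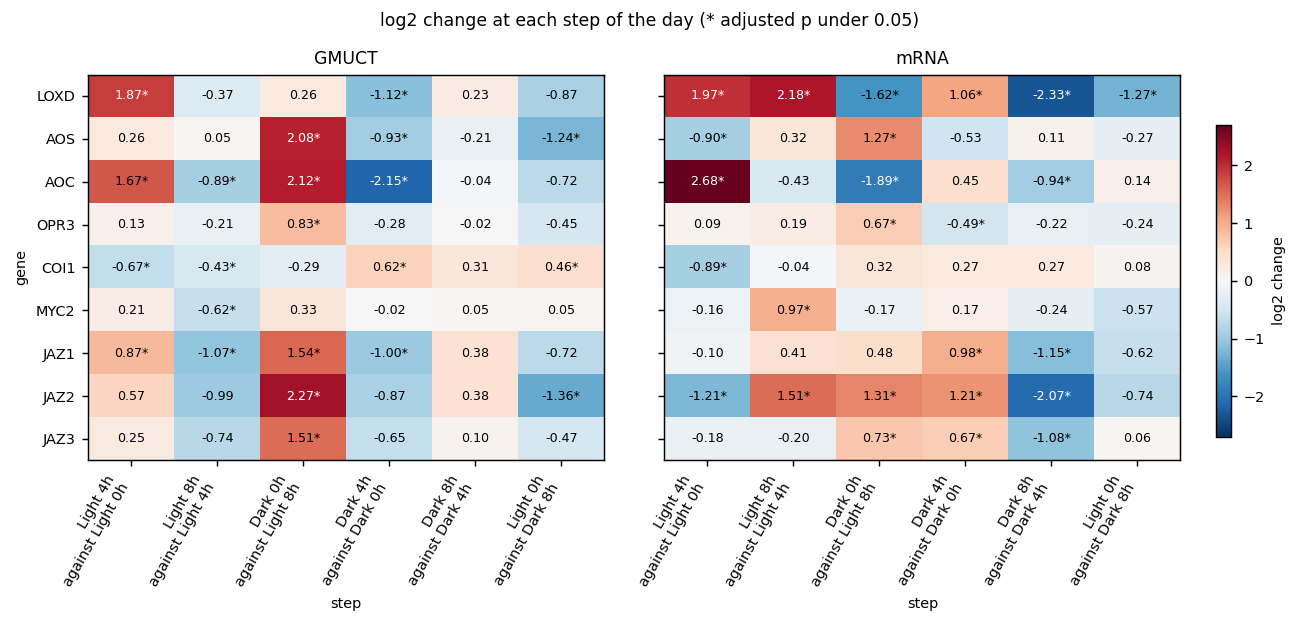
Log2 change (colour and number) of the 9 genes (rows) at each step to the next time of day (columns), GMUCT on the left and mRNA on the right, with a star where the adjusted p was under 0.05. At Dark 0h against Light 8h, 6 of 9 rose in GMUCT, and at Dark 8h against Dark 4h, 5 of 9 fell in mRNA and none passed in GMUCT.

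The ratio of GMUCT to mRNA, uncapped ends set against messages of the same gene, differed among the 6 times for 8 of 9 genes, where 53.7% of 19161 genes did. This was the interaction of library kind and time in a fit of all 36 libraries with edgeR. OPR3 was the exception (adjusted p = 0.2). The test passed for the same number, 8 of 9, without Dark 0h. The ratio is relative to each kind's own scaling, so only its changes are read here.

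The mean ratio of LOXD and of each JAZ gene was lowest at Dark 4h, when mRNA of the JAZ genes was highest, and the next lowest was at Light 8h for all 4 genes. Since mRNA is the divisor, a low ratio at a time of high mRNA follows in part from how the ratio is formed. For JAZ2 the log2 ratio was -2.21 ± 0.47 at Dark 4h (SE, from 3 libraries of each kind), against 1.21 ± 0.36 at Light 4h. JAZ1 had -1.26 ± 0.55 at Dark 4h, against 0.95 ± 0.18 at Light 4h. JAZ3 had -2 ± 0.19 at Dark 4h, against -0.7 ± 0.22 at Dark 0h. These times had the lowest and the highest mean of the day for each JAZ gene. LOXD had -1.11 ± 0.4 (Dark 4h), against -0.9 ± 0.12 (Light 8h), 1.64 ± 0.12 (Light 4h) and 1.72 ± 0.58 (Light 0h). The difference between the lowest 2 times passed for none of the 4 genes. The ratio changed at Dark 4h against Light 8h by -0.34 ± 0.51 for LOXD (adjusted p = 0.724), -0.95 ± 0.47 for JAZ1 (adjusted p = 0.185), -1.15 ± 0.53 for JAZ2 (adjusted p = 0.153) and -0.57 ± 0.3 for JAZ3 (adjusted p = 0.227). The JAZ1 value was -0.16 without replicate 2 of mRNA at Dark 4h. AOC had its highest ratio at Dark 0h (2.2 ± 0.22) and its lowest at Light 8h (-1.76 ± 0.2). MYC2 had -1.18 ± 0.22 at Light 8h, its lowest, against 0.37 ± 0.07 at Light 4h, its highest. AOS stood highest at Dark 0h (-1.23 ± 0.31) and lowest at Light 0h (-2.8 ± 0.23). The COI1 ratio, which passed the edgeR test over times (adjusted p = 0.000122), ran from -0.34 ± 0.12 at Dark 0h to 0.66 ± 0.07 at Light 4h. OPR3, which did not pass, ran from 0.05 ± 0.16 at Light 8h to 0.62 ± 0.13 at Dark 8h.

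Dark 4h against Light 4h leaves Dark 0h out, but was chosen after the values were seen. Dark 4h had the lowest mean ratio for LOXD and the JAZ genes, and Light 4h the highest for COI1, MYC2, JAZ1 and JAZ2. The count and p-values of this comparison therefore follow in part from the choice. The ratio fell there for 6 of 9 (LOXD, COI1, MYC2, JAZ1, JAZ2 and JAZ3), where 10.6% of all genes fell, and rose for 0, where 7.92% rose. JAZ2 fell by 3.65 on the log2 scale (SE 0.54, adjusted p = 2.68e-05), LOXD fell by 2.89 (SE 0.52, adjusted p = 0.000276) and JAZ1 fell by 2.43 (SE 0.47, adjusted p = 0.000567). Without replicate 2 of mRNA at Dark 4h the log2 change was -3.03 for JAZ2 and -1.62 for JAZ1, and both passed. MYC2 fell by 1.32 (SE 0.24, adjusted p = 0.000298), COI1 fell by 0.68 (SE 0.16, adjusted p = 0.0043) and JAZ3 fell by 1.12 (SE 0.3, adjusted p = 0.0106). The JAZ3 fall did not pass without replicate 1 of GMUCT at Light 4h (-0.85, adjusted p = 0.0571). The median was -1.12 for the members and -0.01 for all genes.

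Among single steps, the ratio fell for 5 of 9 at Dark 4h against Dark 0h (14% of all genes) and rose for 0 (11.9%). It rose for 3 of 9 at Dark 8h against Dark 4h, LOXD, JAZ2 and JAZ3 (1.69% of all genes), and fell for 0 (1.49%). At Light 8h against Light 4h it fell for 3 of 9, LOXD, MYC2 and JAZ2 (3.79% of all genes), and rose for 0 (1.68%). At Dark 0h against Light 8h it rose for 2, LOXD and AOC (20.5%), and fell for COI1 (19.2%), and at Light 4h against Light 0h it rose for 2, AOS and JAZ2 (7.56%), and fell for 0 (4.93%). At Light 0h against Dark 8h it changed for 0 of 9, where 0.475% of all genes rose and 0.407% fell. For that step 4 of 9 (AOS, AOC, COI1 and MYC2) had an unadjusted p under 0.05 by edgeR, and DESeq2 called 0 of 9. Of the other counts of 0 here, DESeq2 called 1 gene, the AOC ratio as lower at Light 4h against Light 0h (adjusted p = 0.0487). The step with the largest ratio change of any member was Dark 0h against Light 8h for AOC, 3.99 ± 0.39 (adjusted p = 1.01e-08). Set between Dark 4h and Light 8h the ratio rose for 1 of 9, AOC (5.7% of all genes), and fell for 0 (6.24%). The AOC ratio rose there by 1.38 ± 0.38 (adjusted p = 0.0168), which did not pass without replicate 1 of mRNA at Dark 4h (1.12, adjusted p = 0.0614), replicate 2 of mRNA at Light 8h (1.18, adjusted p = 0.054) or replicate 3 of GMUCT at Dark 4h (0.99, adjusted p = 0.0807).

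**Figure D4:**
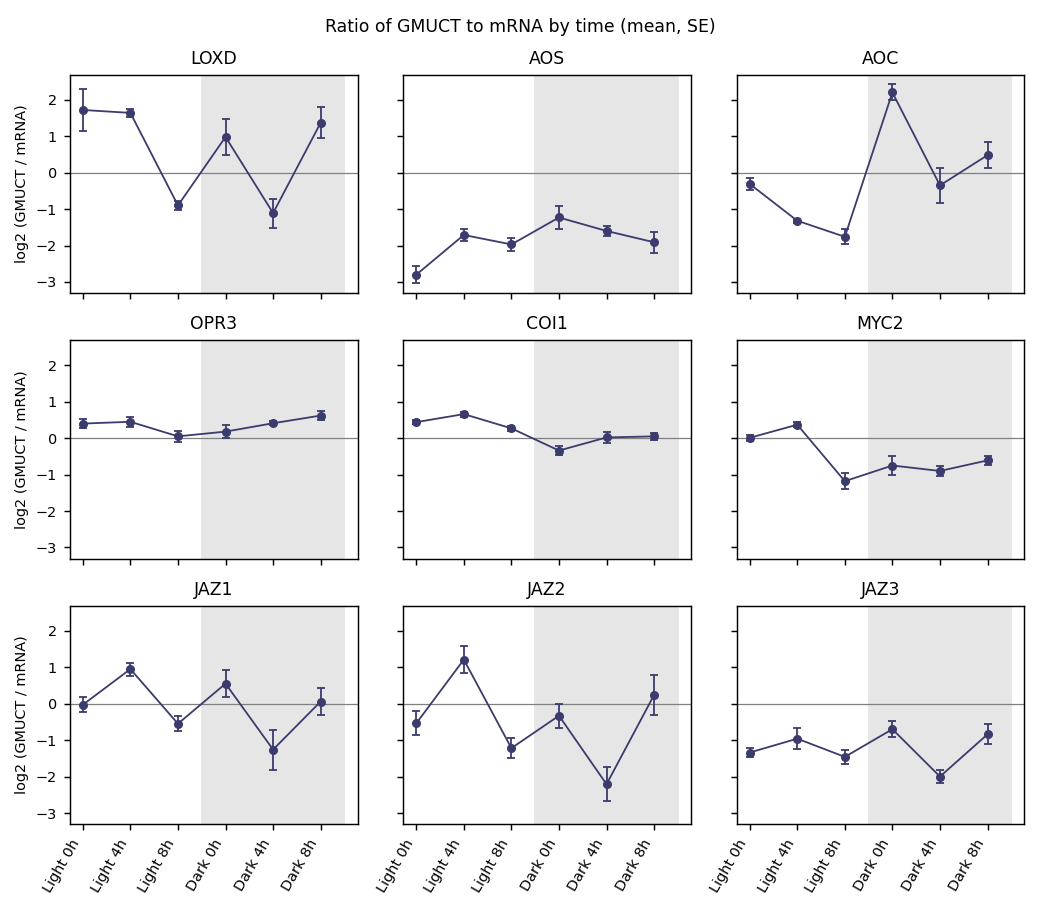
Log2 ratio of GMUCT to mRNA level (vertical axis) of each of the 9 genes at the 6 times (horizontal axis), as the mean with the SE from 3 libraries of each kind, with grey for the dark phase. JAZ2 was at -2.21 at Dark 4h, against 1.21 at Light 4h, AOC was highest at Dark 0h (2.2), and OPR3 stayed between 0.05 and 0.62.

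Over the 36 libraries, with log2 CPM centred within each kind, the JAZ genes were most like each other among the genes described here. Pearson's r was 0.81 for JAZ1 with JAZ2, 0.79 for JAZ2 with JAZ3 and 0.77 for JAZ1 with JAZ3, as descriptions over libraries that share their times. In mRNA alone r was 0.86 for JAZ1 with JAZ2, 0.82 for JAZ2 with JAZ3 and 0.81 for JAZ1 with JAZ3. In GMUCT alone the same pairs were at 0.74, 0.8 and 0.74, and some other pairs of members were more alike. There JAZ2 was more like OPR3 (0.91) and AOS (0.84) than like JAZ1 or JAZ3. JAZ3 was more like OPR3 (0.78) than like JAZ1 in GMUCT, though JAZ2 was the member most like it. The members most like JAZ1 in GMUCT were the other JAZ genes. For JAZ1 and JAZ3, JAZ2 was the most alike of the 9879 genes compared over the 36 libraries. AOS and OPR3 correlated at 0.76, in GMUCT alone at 0.87 and in mRNA alone at 0.66. AOC and AOS, neighbours in the pathway, correlated at 0.65 in GMUCT and -0.76 in mRNA (18 libraries each). COI1 ran against AOC (r = -0.78, with -0.71 in GMUCT and -0.86 in mRNA) and against LOXD (-0.59). MYC2 correlated with JAZ2 at 0.33 in GMUCT and 0.76 in mRNA. For the genes with the widest mRNA range, LOXD and JAZ2, the most alike identifiers were Solyc07g006280 (r = 0.91) and Solyc02g079570 (r = 0.82), which no source used here annotates.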

How the data were processed

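Leaf RNA of tomato was measured in 18 GMUCT and 18 mRNA libraries, read over 50 nt from a single end and 150 nt from both ends, per the labels. The deposited values are raw read counts per gene, made by the authors with cutadapt, STAR 2.4.2a and HTSeq, per the submitters' processing notes. The labels and files name no settings, genome build, annotation or strand handling (not given in the sources used here), so reads of overlapping antisense genes cannot be told apart. The 5 counters of reads outside genes (14.7 to 45.6% of GMUCT counts and 9.83 to 12% of mRNA counts) were left out of library sizes.

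The 9 genes and all comparisons were chosen with earlier results of these data known. A wider list of jasmonate genes and the leaf markers were left out, since no source used here annotates their identifiers, so the tissue was not checked by markers. For 8 of the 9 genes (all but JAZ1) a symbol of that name was looked up in RefSeq (SLJAZ3 for JAZ3), and its chromosome was that of the identifier. RefSeq gave no identifiers of the kind used here, so only the chromosome was compared and the names rest on the choice of identifiers. A most alike identifier was named for the 2 genes of widest mRNA range, among genes of at least 10 CPM in both kinds.

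Counts were filtered with filterByExpr, scaled with TMM and tested with edgeR 4.0.16 in R 4.3.3 (quasi-likelihood, 6 time groups per kind, and 12 groups in 1 fit for the ratio), with Benjamini-Hochberg adjustment over all genes tested and a threshold of 0.05. CPM are TMM-scaled, and log2 CPM used a prior count of 2. Alternatives were RLE scaling, DESeq2 1.42.0, no filter, a replicate block, each library left out, no Dark 0h, and fits of 2 times. No pair of replicates agreed within sampling noise.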

Additional observations from a re-analysis of the deposited data

Results flagged for a closer look

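Changes over a step that differed between GMUCT and mRNA, by edgeR's interaction test and with estimates of opposite sign in the 2 kinds of library, are listed here as the log2 change of the ratio, then that of GMUCT and that of mRNA. For LOXD the ratio changed by -2.55 at Light 8h against Light 4h (adjusted p = 0.00199, GMUCT -0.37, mRNA 2.18). LOXD also differed at Dark 0h against Light 8h, by 1.85 (adjusted p = 0.00478, GMUCT 0.26, mRNA -1.62). At Dark 4h against Dark 0h the LOXD difference was -2.19 (adjusted p = 0.0023, GMUCT -1.12, mRNA 1.06), and at Dark 8h against Dark 4h it was 2.55 (adjusted p = 0.00645, GMUCT 0.23, mRNA -2.33).

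AOC differed by 3.99 at Dark 0h against Light 8h (adjusted p = 1.01e-08, GMUCT 2.12, mRNA -1.89) and by -2.6 at Dark 4h against Dark 0h (adjusted p = 1.44e-05, GMUCT -2.15, mRNA 0.45). AOS differed by 1.2 at Light 4h against Light 0h (adjusted p = 0.0264, GMUCT 0.26, mRNA -0.9). That call was lost in 5 of 36 fits with a library left out, without replicate 3 of GMUCT at Light 0h or Light 4h (adjusted p = 0.06 and 0.075), replicate 2 of mRNA at Light 0h (0.87, adjusted p = 0.129), or replicate 1 or 3 of mRNA at Light 4h (adjusted p = 0.0515 and 0.053). COI1 differed by -0.63 at Dark 0h against Light 8h (adjusted p = 0.00288, GMUCT -0.29, mRNA 0.32), where neither kind passed alone by edgeR, though DESeq2 called the mRNA rise (0.35, adjusted p = 0.0358), as did edgeR with RLE scaling (adjusted p = 0.0497) and in 4 of 18 fits with a library left out, and the GMUCT fall was called without replicate 2 of Dark 0h (adjusted p = 0.0403). MYC2 differed by -1.59 at Light 8h against Light 4h (adjusted p = 5.94e-05, GMUCT -0.62, mRNA 0.97).

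For JAZ1 the difference was -1.99 at Dark 4h against Dark 0h (adjusted p = 0.00214, GMUCT -1, mRNA 0.98), and -1.21 without replicate 2 of mRNA at Dark 4h. For JAZ2 it was -2.5 at Light 8h against Light 4h (adjusted p = 0.00406, GMUCT -0.99, mRNA 1.51). At Dark 4h against Dark 0h JAZ2 gave -2.08 (adjusted p = 0.00354, GMUCT -0.87, mRNA 1.21), and at Dark 8h against Dark 4h 2.45 (adjusted p = 0.00807, GMUCT 0.38, mRNA -2.07). The JAZ2 difference of 1.83 at Light 4h against Light 0h (adjusted p = 0.0243, GMUCT 0.57, mRNA -1.21) was lost in 5 of 36 fits. Those were without replicate 1 or 2 of GMUCT at Light 0h (adjusted p = 0.0662 and 0.0535), replicate 3 of GMUCT at Light 4h (adjusted p = 0.0769), or replicate 3 of mRNA at Light 0h or Light 4h (adjusted p = 0.0611 and 0.0643). JAZ3 differed by -1.32 at Dark 4h against Dark 0h (adjusted p = 0.00188, GMUCT -0.65, mRNA 0.67) and by 1.17 at Dark 8h against Dark 4h (adjusted p = 0.0301, GMUCT 0.1, mRNA -1.08). The second JAZ3 call was lost in 6 of 36 fits, without replicate 1 or 2 of GMUCT at Dark 4h (adjusted p = 0.0724 and 0.0708), replicate 3 of GMUCT at Dark 8h (adjusted p = 0.0954), replicate 1 or 2 of mRNA at Dark 4h (adjusted p = 0.0658 and 0.0706) or replicate 3 of mRNA at Dark 8h (adjusted p = 0.0788). The differences of LOXD, AOC, COI1, JAZ1, JAZ2 and JAZ3 that involve Dark 0h rest on the time at which the profiles of the 2 kinds did not match. With Dark 0h stepped over, at Dark 4h against Light 8h, the ratio changed by -0.34 for LOXD (adjusted p = 0.724), 1.38 for AOC (adjusted p = 0.0168), -0.29 for COI1 (adjusted p = 0.267), -0.95 for JAZ1 (adjusted p = 0.185), -1.15 for JAZ2 (adjusted p = 0.153) and -0.57 for JAZ3 (adjusted p = 0.227). The causes of these differences were not tested.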

How the results depend on the processing

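Under RLE scaling, DESeq2, no filter on low counts, the replicate block, no Dark 0h and fits of 2 times, no change in any of the 9 genes reversed, and each total of calls over the 6 steps stayed within 1.5 times its value. Counts at single steps moved more: DESeq2 called 2 mRNA falls (LOXD and MYC2) in place of 1 at Light 0h against Dark 8h, and 1 in place of 0 for GMUCT falls at Dark 4h against Light 8h (LOXD) and ratio falls at Light 4h against Light 0h (AOC). With a library left out, members that passed over the 6 times were 8 to 9 in GMUCT, 9 in mRNA and 8 for the ratio. Over the 6 steps, calls then ranged from 9 to 12 higher (all libraries 11) and 7 to 14 lower (11, with the 7 without replicate 1 of Light 8h) in GMUCT, 9 to 14 higher (13) and 9 to 13 lower (12) in mRNA, and 5 to 10 higher (7) and 9 to 11 lower (9) for the ratio. Fits of 2 times lost 14 calls and gained 7, and DESeq2 gained 13 and lost 0. Same-numbered replicates were not paired by the labels, and their deviations correlated at -0.5 to 0.54 across times in GMUCT, at -0.34 to 0.33 in mRNA, and at -0.31 to 0.17 between the 2 kinds at 1 time, so the number was no block in the reported fit. With the replicate block, calls over the 6 steps were 11 higher and 16 lower in GMUCT, 12 and 13 in mRNA, and 8 and 9 for the ratio. The block lost 1 call, the JAZ1 mRNA rise at Dark 4h against Dark 0h (adjusted p = 0.0552), and gained 8. These were GMUCT falls of JAZ2 and JAZ3 at Light 8h against Light 4h (adjusted p = 0.0118 and 0.0386) and at Dark 4h against Dark 0h (adjusted p = 0.0137 and 0.0482), the OPR3 GMUCT fall at Light 0h against Dark 8h (0.0415) and rise at Dark 4h against Light 4h (0.0474), the MYC2 mRNA fall at Light 0h against Dark 8h (0.0479) and the JAZ3 ratio rise at Dark 0h against Light 8h (0.0394). Depth limits AOS in GMUCT most, at 1.65 CPM at Light 0h.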
